A study of Mus musculus with 2 samples.

Results

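The genes described here are 10 genes by which fibroblasts are commonly recognized: *Thy1*, *Pdgfrb*, *Fn1*, *Dcn*, *Lum*, *Postn*, *Fbn1*, *Prrx1*, *S100a4* and *Fap*. They were taken as a named list and found on the arrays through the RefSeq accession of each probe, which gave 12 probes of 55681. The expression arrays compared AIMP3-depleted with control mouse embryonic stem cells (mESCs) of the genotype AIMP3f/f;cre-ERT2, whose *AIMP3* alleles are floxed and lost once 4-hydroxytamoxifen (4-OHT) brings the Cre fused to an estrogen receptor into the nucleus. Treatment was 2 μM 4-OHT for 4 days (2 replicates) or ethanol as the control, always with LIF in the medium. Cy5 marked the RNA of an AIMP3-depleted replicate on each array, and Cy3 marked 1 pool of control RNA, which was put on both. The control was therefore 1 sample, its own spread is not in any test, and the dyes were not swapped, so a gene-specific difference between the dyes cannot be told apart from the treatment. Both groups carry the same alleles and the same Cre, so 4-OHT and active Cre cannot be told apart from the loss of AIMP3. The mESCs came from blastocysts, and nothing in the sources used here says whether the replicates were separate cultures of 1 clone, so p-values measure only the spread between these samples.

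Fibroblasts build and remodel connective tissue. They secrete fibronectin, collagens, fibrillin and small leucine-rich proteoglycans, and they carry receptors for platelet-derived growth factor on their surface. Mouse embryonic fibroblasts (MEFs), treated so that they no longer divide, are also the classical feeder layer for mESCs. The labels describe MEF feeder layers as the general culture, whereas the methods describe MEF-conditioned medium for incubation with drugs. Were all fibroblast RNA in such a culture added by a single kind of cell, and were the genes silent in every other cell, each gene would show the same ratio between the samples. The values below were examined for this.

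On the arrays, 8 of the 10 genes were bright enough to test, all 8 had a positive log2 ratio of AIMP3-depleted over control (52.7% of all tested genes did), and 5 of them (*S100a4*, *Fbn1*, *Postn*, *Prrx1* and *Pdgfrb*) were raised. *Dcn*, *Fn1* and *Thy1* stayed under the threshold, a change over 1.5-fold with an unadjusted p under 0.05, taken here from limma. Of all 24031 tested genes, 5.53% were raised by this rule, 0.791% were lowered and 6.32% changed in either direction. Of these, 14981 have a RefSeq gene name, and the others are counted as genes under the array's own identifiers. Shares among named genes alone are not given here. The ratios were not uniform, and ran from 0.17 for *Thy1* to 1.40 for *S100a4* on the log2 scale. *Lum* and *Fap* were too dim to test. In bulk RNA, fewer cells of a type and less RNA per cell cannot be told apart, and feeder RNA in the samples cannot be told apart from expression by the mESCs themselves.

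Of the 62976 spots on an array 59305 read transcripts. No spot was saturated, between 59.3% and 60.6% of spots were well above background in a channel, and the median signal over local background lay between 2.68 and 3.31. Both arrays lay on 1 slide. Transcripts of the targeted gene, *Eef1e1*, which encodes AIMP3, had a log2 ratio of -0.90 on each array (limma, p adjusted over all tested genes = 4.70e-05). Which exon its probe reads is not given in the sources used here. Rises made up 87.5% of all changes (1328 raised against 190 lowered genes), compared with 71.5% when the scanner software's processed signals were used and 97.8% when arrays were centred on the median in place of loess. Median centring moved the median log2 ratio of all genes from 0.02 to 0.18, and values under it are to be read against that shift. The stem cell label was checked on 23 pluripotency genes, and each of them stood well above background in control and AIMP3-depleted RNA alike.

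**Figure D1:**
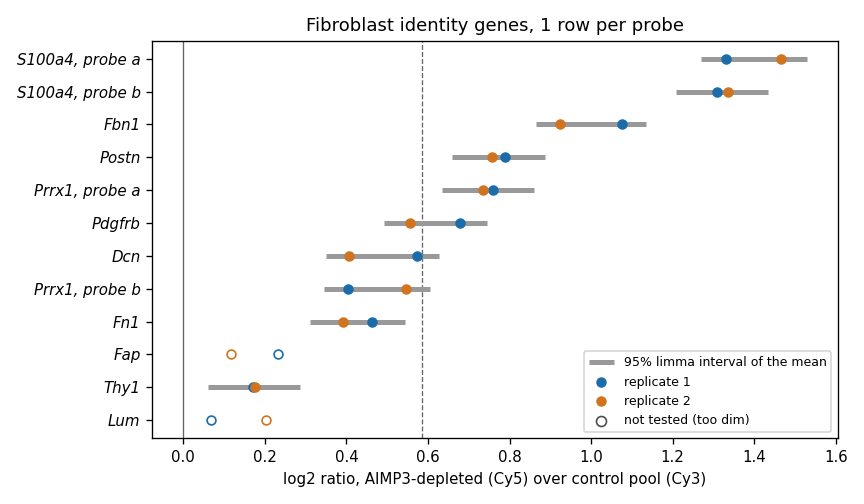
Log2 ratio of AIMP3-depleted (Cy5) over control pool (Cy3) for the 12 probes of the 10 fibroblast genes, with 1 point per array, the 95% limma interval of the mean as a grey bar, and a dashed line at 1.5-fold. Probes of *S100a4* lie highest, *Thy1* lies lowest among tested probes, and hollow points mark *Fap* and *Lum*, which were not tested.

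Of the surface proteins, *Pdgfrb* (NM_001146268), the beta receptor for platelet-derived growth factor, had a log2 ratio of 0.68 in replicate 1 and 0.56 in replicate 2. The mean was 0.62 ± 0.086 (SD, n = 2), or 1.53-fold, and it passed the test (adjusted p = 0.000202 by limma). It was the closest of the raised genes to the threshold, and the array of replicate 2 alone was under 1.5-fold. *Thy1* (NM_009382), a glycoprotein anchored in the outer membrane by a lipid and widely used to sort fibroblasts, had 0.17 and 0.18. Its mean of 0.17 ± 0.0050 (SD, n = 2) corresponds to 1.13-fold, with an adjusted p of 0.0162 by limma. It was 0.40 with median centring, and 0.10 with the processed signals, where the unadjusted p was 0.0698 by limma. Both arrays thus gave nearly the same small value for *Thy1*, and 73.4% of tested genes had a lower ratio. *Thy1* was at the same time a bright probe in the control pool, at 80.9 and 81.2 times its local background on the arrays.

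*Fap* (NM_007986), a surface protease found on activated fibroblasts, was not well above background in the control channel of either array. Its median Cy3 intensity was 80.0 and 77.0 against Cy5 intensities of 130.0 and 98.0, and its Cy5 signal was well above background on the array of replicate 1 only. *Fap* was therefore left out of the test, and with 1 of 2 arrays measuring it in AIMP3-depleted cells no fold is given.

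Of the matrix glycoproteins among the 10 genes, *Fbn1* (NM_007993), which encodes the fibrillin of elastic microfibrils, had the highest ratio. Its log2 ratio was 1.08 in replicate 1 and 0.92 in replicate 2, with a mean of 1.00 ± 0.11 (SD, n = 2), that is just under 2.00-fold (adjusted p = 5.55e-05 by limma). *Postn* (NM_001198766), which encodes periostin, a matricellular protein that binds integrins, had 0.79 and 0.76. Its mean was 0.77 ± 0.022 (SD, n = 2), or 1.71-fold (adjusted p = 6.65e-05 by limma). Both genes passed 1.5-fold on each array by itself.

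*Fn1* (NM_010233) encodes fibronectin, which many cell types besides fibroblasts secrete. It was the brightest of the 12 spots, with median Cy3 intensities of 51403 and 57412, at 1117 and 1305 times the local background, and Cy5 intensities of 141004 and 124888. Its log2 ratio was 0.46 and 0.39, with a mean of 0.43 ± 0.049 (SD, n = 2), or 1.34-fold (adjusted p = 0.000562 by limma), under the threshold. This value moved with the normalization. It was 0.89 with median centring, past the threshold, and 0.26 with the processed signals.

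The small leucine-rich proteoglycans bind collagen fibrils and set their spacing. *Dcn* (NM_007833), which encodes decorin, had a log2 ratio of 0.57 in replicate 1 and 0.41 in replicate 2. Its mean was 0.49 ± 0.12 (SD, n = 2), or 1.40-fold (adjusted p = 0.000667 by limma), the widest gap between the arrays among these genes and under the threshold. With median centring it was 0.67 and passed. *Lum* (NM_008524), which encodes lumican, was not well above background in either channel of either array. Its Cy3 intensities were 71.0 and 58.0 and its Cy5 intensities 86.0 and 69.5, between 1.23 and 1.51 times the local background, so no fold is given. The pair of related proteoglycans therefore differed in whether they could be measured at all: *Dcn* stood at 15.6 and 16.2 times its local background in the control channel.

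*Prrx1*, a homeobox transcription factor of limb and craniofacial mesenchyme, is the only nuclear regulator among the genes. It was read by 2 probes that the array lists under different transcripts. The brighter one (NM_175686) gave 0.76 and 0.73, with a mean of 0.75 ± 0.018 (SD, n = 2), or 1.68-fold (adjusted p = 7.36e-05 by limma). The dimmer one (NM_001025570) gave 0.40 and 0.55, with a mean of 0.47 that did not pass 1.5-fold, and it was not well above background in the control channel of the array of replicate 2. The value for *Prrx1* moved with the processing. Its log2 ratio was 0.61 at the mean of its probes and 0.77 with no background subtraction. It was 0.99 with no offset added to the signals, 1.20 with the processed signals and 1.24 in the authors' deposited table. Its brighter probe stood at only 2.35 and 2.63 times the local background in the control channel, and the offset of 50 pulls ratios of such dim spots towards 0.

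*S100a4* (NM_011311) encodes a calcium-binding protein that acts on non-muscle myosin. It is often called fibroblast-specific protein, although macrophages make it too. Its log2 ratio was 1.33 in replicate 1 and 1.47 in replicate 2, with a mean of 1.40 ± 0.096 (SD, n = 2), that is 2.64-fold (adjusted p = 3.24e-05 by limma). By its mean ratio it ranked 44 from the top of 24031 tested genes. Another probe listed under the same transcript gave 1.31 and 1.33, with a mean of 1.32. The probes of *S100a4* thus differed by 0.08, and those of *Prrx1* by 0.27.

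**Figure D2:**
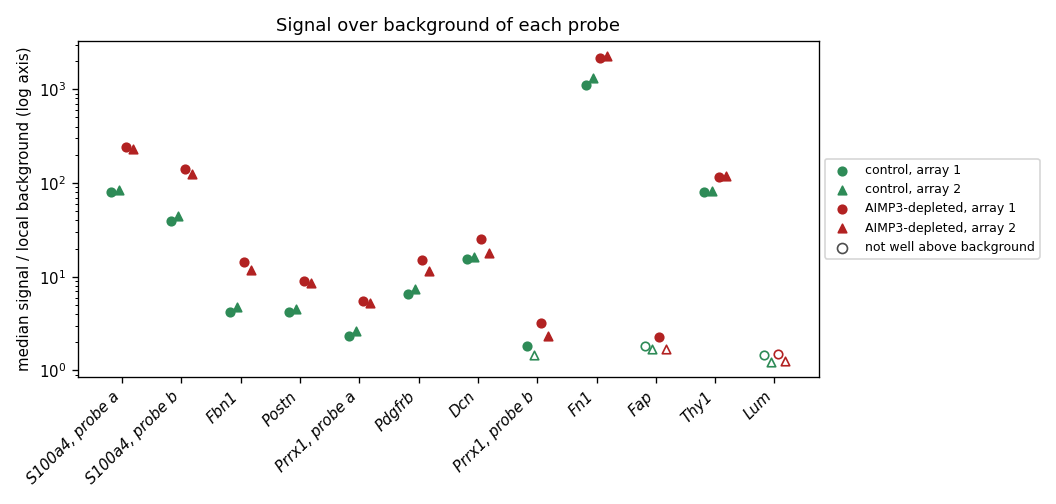
Median spot signal over local background (log axis) for each probe, in the control channel (green) and the AIMP3-depleted channel (red) of each array, with hollow symbols where the spot was not well above background. *Fn1*, *Thy1* and *S100a4* were far above background already in the control pool, *Lum* was near background in every channel, and *Fap* was well above it in 1 channel of 1 array.

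All 8 tested genes were well above background in the control channel of both arrays, so that none of them was tested through its level in AIMP3-depleted cells alone. Without a filter on dim probes the count of raised genes was also 5. The log2 level of the control pool, after background correction, was 11.73 and 11.72 for the brighter *S100a4* probe and 11.84 and 11.93 for *Thy1*. For *Pdgfrb* it was 8.41 and 8.49, for *Fbn1* 7.96 and 8.13, and for *Postn* 7.71 and 7.81. Levels of different probes are not comparable as amounts of RNA, since each probe binds with its own strength, but each gene named here had a measurable signal in cells that had not received 4-OHT.

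The question whether the ratios were uniform was put to the spread of the 8 mean log2 ratios. Their SD was 0.38 (0.36 in replicate 1 and 0.40 in replicate 2), whereas the SD between arrays of a single gene was 0.12 at most among them, with a median of 0.068. The range from *Thy1* to *S100a4* was 1.23. Of 28 pairs of genes, 28 lay in the same order on both arrays, which share the control pool, the dye orientation and the slide, so that a deviation in any of these would keep the order. In 21 pairs the 95% limma intervals did not overlap. The 7 pairs with overlapping intervals were *Fbn1* with *Postn*, *Postn* with *Prrx1* and with *Pdgfrb*, *Prrx1* with *Pdgfrb*, *Pdgfrb* with *Dcn* and with *Fn1*, and *Dcn* with *Fn1*. Neighbours in the order from *Fbn1* down to *Fn1* thus had overlapping intervals, while *S100a4* lay above and *Thy1* below every other tested gene. Overlap of intervals is not a test of a difference, and no difference between genes was tested. The intervals rest on 2 arrays with the same control pool and slide, and cover labelling, hybridization and the AIMP3-depleted cultures only.

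Probes of the same gene can also differ, through their sequence or the transcripts they read. Among 3832 named genes with more than 1 tested probe, the median range between probes was 0.15 and the 90th percentile was 0.43 on the log2 scale. For the 295 of them that changed, the median range was 0.33. Smaller differences, such as that of 0.25 between *Fbn1* and *Prrx1*, were of the size found between probes of 1 gene.

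The tested genes were also set in 3 equal groups by brightness. *S100a4* (1.40), *Fn1* (0.43) and *Thy1* (0.17) all lay in the brightest group, where 4.91% of genes were raised. *Fbn1* (1.00), *Pdgfrb* (0.62) and *Dcn* (0.49) lay in the middle group, with 6.08% raised, and *Postn* (0.77) and *Prrx1* (0.75) in the dimmest, with 5.59% raised. Genes with high and with low ratios were thus found within the same brightness range. Under 9 settings of background correction, dye normalization, filter and probe rule (the one described so far among them), *S100a4* was highest in 9, and *Thy1* was lowest in 8. These settings were not separate checks. A change of filter left the ratios of the tested genes as they were, and the deposited table is nearly the processed signals plus a constant. The exception was the setting without a filter, where *Lum*, which was not measurable, was lowest. The range of the log2 ratios was between 1.19 and 1.31 in these settings, while the order from *Fbn1* to *Fn1* changed.

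**Figure D3:**
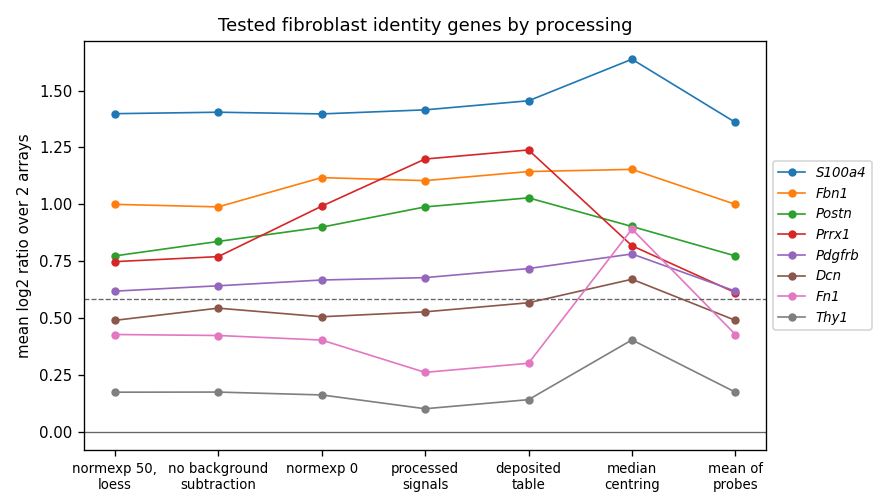
Mean log2 ratio over 2 arrays of each tested gene under 7 ways of processing, with a dashed line at 1.5-fold and lines joining the values of 1 gene. *S100a4* stays at the top and *Thy1* at the bottom, *Prrx1* climbs to 1.24 in the deposited table, and *Fn1* moves from 0.43 to 0.89 with median centring.

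Start-site sequences were at hand for 4 of the 10 genes, in a RefSeq table on build GRCm38.p6 that gives 250 bases before and 50 after a start. They are shown so that a reader can see what lies at the starts of those raised genes for which the table has a window. Capitals mark matches, on either strand, to TATAAA (the TATA box), CCAAT (the CCAAT box), GGGCGG (a GC box), TGANTCA (an AP-1 site) and GGAATG (a TEAD site). Searched motifs share no bases in these windows.
*S100a4*, chr3:90603520-90603819, plus strand: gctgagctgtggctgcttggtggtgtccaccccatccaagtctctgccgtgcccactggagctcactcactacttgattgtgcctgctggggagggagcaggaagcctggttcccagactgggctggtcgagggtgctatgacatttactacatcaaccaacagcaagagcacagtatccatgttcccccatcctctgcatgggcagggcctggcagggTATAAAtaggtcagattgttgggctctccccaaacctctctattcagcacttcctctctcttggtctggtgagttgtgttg
*Postn*, chr3:54360857-54361156, plus strand: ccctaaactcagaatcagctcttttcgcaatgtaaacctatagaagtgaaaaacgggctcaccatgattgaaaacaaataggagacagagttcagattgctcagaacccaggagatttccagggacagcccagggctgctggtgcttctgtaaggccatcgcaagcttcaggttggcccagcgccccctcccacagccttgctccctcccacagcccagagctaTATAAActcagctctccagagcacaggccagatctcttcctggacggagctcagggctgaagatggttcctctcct
*Prrx1*, chr1:163313601-163313900, minus strand: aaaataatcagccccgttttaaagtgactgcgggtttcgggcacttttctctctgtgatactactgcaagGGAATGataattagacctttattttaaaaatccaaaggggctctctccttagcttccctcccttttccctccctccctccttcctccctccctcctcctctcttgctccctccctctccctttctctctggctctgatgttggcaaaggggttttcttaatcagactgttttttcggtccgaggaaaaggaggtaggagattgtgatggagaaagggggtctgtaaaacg
*Fbn1*, chr2:125506389-125506688, minus strand: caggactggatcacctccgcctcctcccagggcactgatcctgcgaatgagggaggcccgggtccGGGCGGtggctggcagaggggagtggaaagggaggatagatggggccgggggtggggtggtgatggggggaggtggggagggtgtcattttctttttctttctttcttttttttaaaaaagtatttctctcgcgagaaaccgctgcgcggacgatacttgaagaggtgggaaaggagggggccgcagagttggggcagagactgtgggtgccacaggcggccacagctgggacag

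*S100a4* and *Postn* each hold TATAAA, beginning 31 and 26 bases before the start, where a TATA box usually sits. This motif was found in 13.6% of 32851 windows of the same length. *Prrx1* and *Fbn1* have no match to it, and hold GGAATG (in 14.7% of windows) and GGGCGG (in 35.7%) respectively. None of the 4 windows printed holds TGANTCA, found in 7.81% of all windows, or CCAAT, found in 37.4%. *Fbn1* has 14 CpG dinucleotides in its window, *Prrx1* 6, *Postn* 5 and *S100a4* 2, against a median of 7. A match is a run of letters and does not show that a factor binds there. *Postn* has another start in the table, which is not shown, and that window holds no TATAAA and 1 CCAAT match (as ATTGG on the strand of the gene).

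Other fibroblast genes were examined in 3 lists of 79 genes in all, of which 68 were tested, 62 lay above 0 and 37 (54.4%) were raised, against 5.53% of all genes. At 2-fold, 11 of them were raised, against 1.17% of all genes. *Col5a2* (0.47), *Cav1* (0.52) and *Hoxd8* (0.29) were not well above background in the control channel. They were tested through the AIMP3-depleted channel, a filter that favours positive ratios, and none was raised. With both channels required to be well above background, 63 genes were tested and 37 were raised. In the matrix list the median of 34 tested genes was 0.69, beside 0.68 for the 8 tested identity genes and 0.02 for all genes. There, 19 were raised and 0 were lowered past 1.5-fold by limma, although 4 had a negative ratio with an unadjusted p under 0.05. The highest ratios were those of *Sparc* (1.24), which encodes a collagen-binding protein that parietal endoderm makes as well, *Fbln2* (1.07), which encodes fibulin-2, and *Col1a1* (1.06), a chain of type I collagen. The lowest were *Mfap4* (-0.26) and *Cthrc1* (-0.41), neither of which passed 1.5-fold. SDs of the ratios were 0.43 in this list and 0.30 over all tested genes.

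Some chains of the same collagen could be set side by side, chosen after their values were seen. *Col1a1* (1.06) and *Col1a2* (1.04), which assemble into type I collagen, had nearly the same ratio. Of the chains of type VI collagen, *Col6a1* (0.81) and *Col6a3* (0.73) were raised, whereas *Col6a2* had 0.0081 and 0.16 on the arrays and did not pass. *Mmp2*, a gelatinase secreted in quantity by cultured fibroblasts and also chosen after its values were seen, had 0.05 and -0.04. The ratios of matrix genes thus ranged over 1.65 and those of the identity genes over 1.23.

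Genes for surface proteins and the contractile cytoskeleton of fibroblasts had a median of 0.89 (0.92 in replicate 1 and 0.95 in replicate 2). Of the 17 tested, 11 were raised, against 5.53% of all genes, with 0 lowered and 0 negative ratios. *Cav1* (0.52, not raised) was among the 17 through the AIMP3-depleted channel only. *Cald1* (1.49), which encodes caldesmon, *Tagln* (1.47), which encodes transgelin, and *Vim* (1.42), which encodes vimentin, were the highest, and lay at or just above the ratio of *S100a4*. The lowest were *Mme* (0.39) and *Eng* (0.24).

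Transcription factors of mesenchyme, including Hox genes that fibroblasts keep from their place of origin in the embryo, belong with *Prrx1*. Of 26 on the array 17 could be tested, and 7 were raised, against 5.53% of all genes. By limma 0 were lowered (0 with a negative ratio and an unadjusted p under 0.05). The median was 0.48, which was 0.77 in the deposited table, 0.73 with the processed signals and 0.28 with no filter. *Snai2* (0.91), *Twist2* (0.82) and *Foxf1* (0.81) were the highest, and *Meox1* (0.02) and *Lmx1b* (-0.11) the lowest. These regulators were dim, and 9 of the 26 (8 untested ones and *Hoxd8*, which was tested through the AIMP3-depleted channel and had 0.29) were not well above background in the control channel of either array: *Emx2*, *Foxd1*, *Hoxd8*, *Meox2*, *Osr1*, *Osr2*, *Shox2*, *Tbx5* and *Tcf21*.

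**Figure D4:**
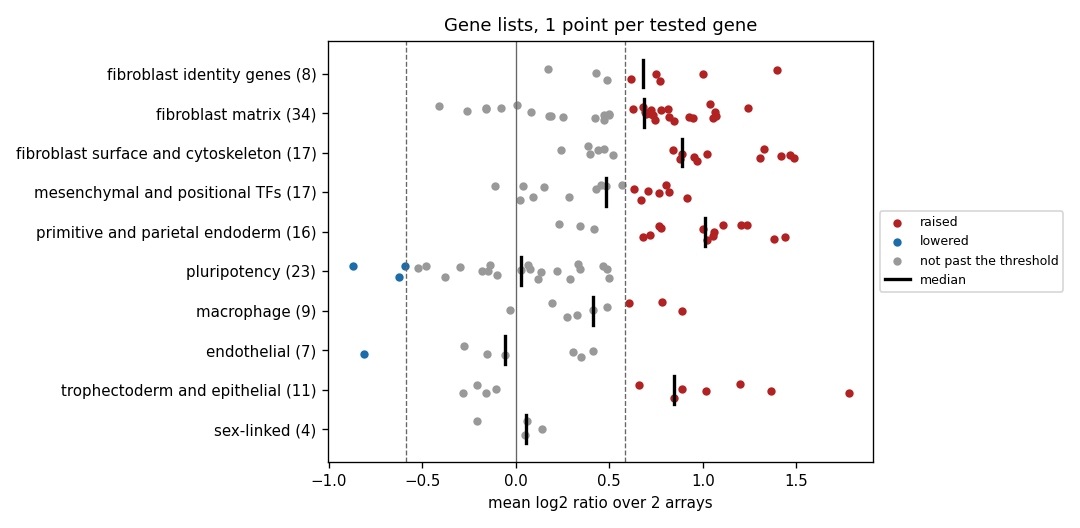
Mean log2 ratio over 2 arrays of each tested gene in the 10 fibroblast identity genes and in 9 other lists (number tested in brackets), with the median as a black bar and dashed lines at 1.5-fold. Raised genes fill much of the fibroblast, endoderm and epithelial lists, whereas the pluripotency list is spread around 0.

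Markers of other cells that such a culture could hold were read in the same fit, since several of the 10 genes are not made by fibroblasts alone. In a list of macrophage genes, 9 of 11 were tested, 8 lay above 0, and 3 were raised, against 5.53% of all genes. The raised ones were *Lyz2* (0.89), *Laptm5* (0.78) and *Tyrobp* (0.60). The lowest were *Cd14* (0.19) and *Cd52* (-0.03), and *Ptprc*, the pan-leukocyte marker, was not well above background in the control channel. The log2 of the summed level of the list's genes was 14.70 and 14.71 in the control channel and 15.05 and 15.03 in the AIMP3-depleted channel. With median centring 5 of them passed, when 11.8% of all genes were raised. Macrophages also express *S100a4*, and their part in its ratio was not tested.

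Primitive and parietal endoderm secretes fibronectin and basement membrane. Its genes were raised in 13 of 16 cases, against 5.53% of all genes (median 1.01, 0 lowered and 0 negative). *Sox17* (1.44), *Foxa2* (1.38) and *Col4a1* (1.24) were the highest, and *Lamc1* (0.34) and *Amn* (0.23) the lowest. The genes not well above background in the control channel included *Afp*, *Ttr* and *Hnf4a*. The log2 of the summed level was 17.25 and 17.26 in the control and 18.02 and 17.96 in the AIMP3-depleted channel. Trophectoderm and epithelial genes were raised in 7 of 11 cases, led by the keratins *Krt18* (1.78), *Krt8* (1.36) and *Krt19* (1.20), with *Tfap2c* (-0.21) and *Epcam* (-0.28) lowest. None of the 11 was lowered past 1.5-fold by limma, and 3 had a negative ratio with an unadjusted p under 0.05, which were those 2 and *Eomes* (-0.16, named after its value was seen). The part of these cells in the ratios of *Fn1* and the other genes was not tested.

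Of all tested genes 33.5% had a positive and 27% a negative ratio with an unadjusted p under 0.05 at any fold. Of 7 endothelial genes 0 were raised by limma (3 positive and 3 negative at that p), with *Tie1* (0.42), *Tek* (0.35) and *Cdh5* (0.31) highest, *Vwf* at -0.28, and *Cldn5* (-0.81) lowered. Their median was -0.06, but 0.12 with median centring and 0.31 at the mean of all probes. Of 23 pluripotency genes 0 were raised by limma (9 positive and 10 negative with an unadjusted p under 0.05) and 3 were lowered, against 0.791% of all genes. These were *Fgf4* (-0.87), *Dppa3* (-0.62) and *Tdgf1* (-0.59), the last named after its value was seen, and the highest were *Dppa5a* (0.50), *Tbx3* (0.49) and *Nodal* (0.46). The negative ones that did not pass 1.5-fold included *Sox2* (-0.53), *Pou5f1* (-0.48) and *Nanog* (-0.38), the core factors of the stem cell state, also named after their values were seen. With median centring 3 of the 23, and 11.8% of all genes, were raised. The log2 of the list's summed level was 18.75 and 18.74 in the control and 18.81 and 18.77 in the AIMP3-depleted channel, a sum carried by the brightest probes.

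The log2 of the summed level of the 8 tested identity genes, a sum of which *Fn1* makes up most, was 16.36 in the control channel of each array. It was 16.87 and 16.82 in the AIMP3-depleted channel. That of the fibroblast matrix list was 17.38 and 17.42 against 18.38 and 18.40. Sex-linked transcripts, which could differ between feeder cells and mESCs, did not pass the threshold in either direction (0 of 4 by limma, with 1 positive and 1 negative at an unadjusted p under 0.05). *Xist*, the RNA that silences an X chromosome in female cells, had a log2 ratio of -0.07 and 0.19, *Eif2s3y* 0.17 and 0.11, *Ddx3y* 0.10 and 0.00095, and *Uty* -0.25 and -0.17. *Kdm5d* was not well above background in the control channel. Values of *Xist* straddled 0, and the Y-linked genes did not move together.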

How the data were processed

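Agilent Feature Extraction (version 11.5.1.1 per the file headers) gave a scanner file per array, in which the authors deposited unnormalized intensity values for spots and for the background around them. The processed signals and the log10 ratio that the authors deposited beside them were background subtracted and dye normalized by that software. The log10 ratio was not used. A value table deposited by the authors has log2 ratios from GeneSpring. These equal the log2 ratio of the processed signals plus 0.040 and 0.039 on the arrays, within 0.01, for 99.8% of probes, so a positive value stands for AIMP3-depleted over control. The table's medians were 0.091 and 0.11, and 0 of its columns were left out.

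Median signals were corrected with normexp (offset 50) of limma 3.58.1 in R 4.3.3 and normalized by loess within each array. For the summed levels of lists, the Aquantile normalization of limma between the arrays followed. Control spots were dropped, as were outlier spots (215 and 227), before averaging repeated spots. A probe was tested if either channel was well above background on each array (33022 of 55681), and the brightest probe stood for a gene. Mean log2 ratios were tested against 0 with lmFit and eBayes, with 1 residual and 5.29 prior degrees of freedom and Benjamini-Hochberg adjustment over 24031 genes. The arrays' number limits the precision. Of the spots, 31014 matched an accession in the RefSeq table, and 14981 of the 24031 tested genes have their names from it. The others are counted under the array's own identifiers. Sequences are from RefSeq and were matched by symbol. The steps were tested on simulated data.

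The 10 genes, the other lists and the tests were chosen with earlier results of these data known. The text names each of the 10 genes, *Eef1e1*, and in each list the 3 highest and 2 lowest tested genes, or all tested genes where a list has 5 or fewer. It also names genes that were not well above background in the control channel, for that reason, and says where another gene was named later. Alternatives were no background subtraction, no offset, median centring, the processed signals, a stricter filter on dim probes or none, the mean of all probes, each probe by itself, the deposited table, a 2-fold and an adjusted threshold, and each replicate left out.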

Additional observations from a re-analysis of the deposited data

How the results depend on the processing

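Direction was positive for each of the 8 tested genes under each alternative. The filters and thresholds left these ratios as they were, so only the other alternatives could have changed a sign. The count of 5 raised genes was between 5 and 7 under the other ways of processing with both replicates, and 1 (*S100a4*) at the 2-fold threshold. Of all genes 5.53% were raised in the fit described above, 3.64% with no filter and 8.87% in the deposited table. The count of 7 came with median centring, where 11.8% of all genes were raised, and at 2-fold 1.17% were. Of 10 tested probes 6 passed by themselves. With 1 replicate left out there is no test, and between 4 and 5 genes lay over 1.5-fold, *Pdgfrb* being under it without replicate 1. The matching shares over all probes and all genes are not given for these alternatives, so the counts have no background beside them. The median of the log2 ratios, 0.68, was 0.87 in the deposited table, 0.83 with the processed signals, 0.85 with median centring, 0.78 with no offset, 0.61 at the mean of all probes and 0.55 with no filter. Without 1 replicate it was between 0.65 and 0.72, and the SD between 0.36 and 0.40. That SD, 0.38, was 0.47 with the processed signals and 0.47 in the deposited table, and 0.41 with no offset. In the other fibroblast lists 37 genes were raised, and 11 at 2-fold. Among all genes 1518 changed, against 298 at 2-fold, 2748 in the deposited table, 2722 with the processed signals and 2891 with median centring. The median of the endothelial list, -0.06, was 0.31 at the mean of all probes and 0.12 with median centring, and that of the pluripotency list, 0.03, was -0.021 with the processed signals. Apart from the offset and the size of the fold, which act by construction, the cause was not tested. No paired analysis was possible because the control replicates were pooled into 1 sample. Dim probes set the limits: *Lum* and *Fap* gave no test, and ratios of *Prrx1* rest on a control signal near background.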
